A study of Mus musculus with 4 samples.

Results

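The Hox genes encode homeodomain transcription factors that give body segments their identity along the head-to-tail axis. All mouse genes whose symbol is Hox, a cluster letter from a to d and a paralogue number were taken, which gave 39 of the 21900 protein-coding genes in the RefSeq table. They lie in 4 clusters, with 11 genes in HoxA on chromosome 6, 10 in HoxB on chromosome 11, 9 in HoxC on chromosome 15 and 9 in HoxD on chromosome 2. Each gene was looked up in lists of regions where DNMT3B, an enzyme that adds methyl groups to unmethylated cytosines, was enriched. The DNA came from lung metastases of 4T1, a mouse mammary tumour cell line, in the BALB/c strain. Chromatin immunoprecipitation and sequencing (ChIP-seq) gave 2 libraries with a DNMT3B antibody and 2 input libraries without antibody, each kind from lungs 3 and 5. The tumour line, tissue and strain were common to all 4 libraries.

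The paralogue number follows a gene's place in its cluster. Genes with low numbers act towards the head and genes with high numbers towards the tail and the ends of the limbs. Polycomb group proteins keep the clusters silent in cells that do not use them, and their many CpG islands usually stay free of methylation there. Gain of methylation at Hox genes is a known feature of many cancers, and DNMT3B is one of the enzymes that can place it.

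The data were positions only. A list from the caller MACS, made for narrow enrichment, held 1705 distinct regions, and a list from SICER, made for broad enrichment, held 8242 islands. The SICER list is named as a top 20 selection. What was ranked or left out is unknown here, so a gene absent from it may have had an island that was not kept. The name of the MACS list holds a term that may be a cutoff, but its meaning is not stated either. Neither list carried a read count or a score, so the depth is unknown and no value belongs to 1 library or to input alone. No difference between libraries could be tested, and expression markers could not be used to check the tissue. Counts below are therefore descriptions with no test. Positions are given as deposited. The labels name the build mm10, but the start of Hoxa2 in the SICER list lay 50001 bp below that in GRCm38, the same assembly. The starts of Hoxb9 and Hoxd13 implied by the MACS list lay 138686 and 161858 bp below it. For Hoxd13 its region was assumed to cross the gene start, which the list as read here does not state. The build of the printed positions is thus not known.

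DNMT3B regions were listed at 6 of the 39 Hox genes (15.4%), against 20.9% of all protein-coding genes. Hoxa9, Hoxa10, Hoxb9, Hoxd3 and Hoxd13 had 1 MACS region each, and Hoxa2 had 2 SICER islands. No Hox gene had both, as 2.46% of all protein-coding genes did, and 33 Hox genes (84.6%) were named in neither list. The MACS share was 5 of 39 genes (12.8%, exact 95% binomial interval 4.30 to 27.4), against 6.14% of all protein-coding genes. The SICER share was 1 of 39 genes (2.56%, interval 0.0649 to 13.5), against 17.2% of all protein-coding genes. The MACS interval takes in the share of all genes, whereas the SICER interval lies below it. Of the 39 Hox genes, 33 are up to 10 kb long. The SICER interval does not lie below the 11.3% of protein-coding genes of that length that have an island. The MACS interval starts at 4.30, just above the 4.06% of protein-coding genes of that length with a MACS region. These intervals treat genes as independent, which neighbours in a cluster are not. The SICER list also pairs each island with a single gene, so a Hox gene reached by an island paired with its neighbour is not counted. Hoxa3 may be such a gene, by the GRCm38 distances given below.

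**Figure D1:**
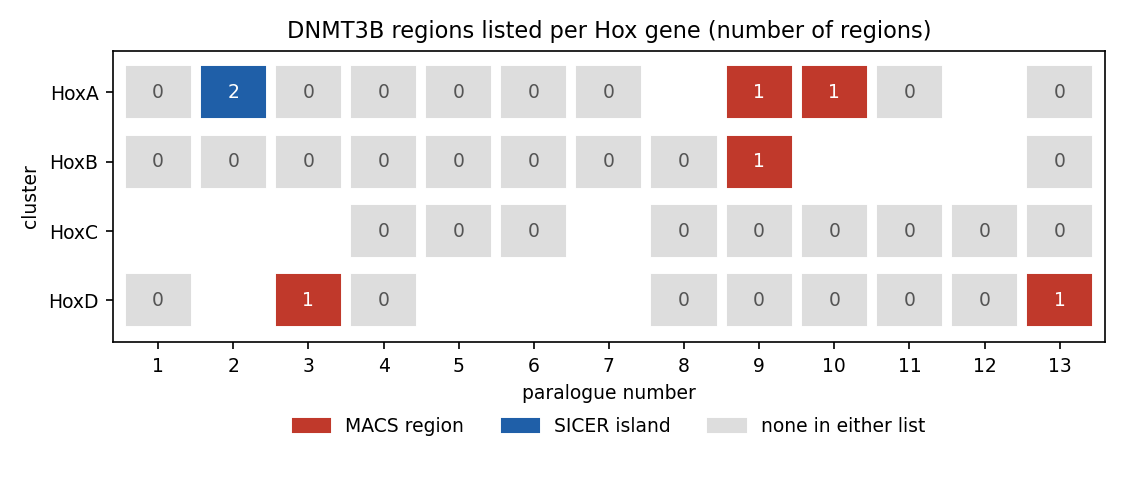
Number of listed DNMT3B regions for each of the 39 Hox genes, by cluster (rows) and paralogue number (columns). Red squares have a MACS region, the blue square has SICER islands, grey squares have none, and blank places have no gene. The genes with paralogue numbers 4 to 8 and the whole HoxC row are grey.

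By paralogue number the counts were small. Of the 16 genes with numbers 9 to 13, 4 had a MACS region (25%, interval 7.27 to 52.4) and 0 had an island (interval 0 to 20.6). Among all protein-coding genes the shares were 6.14% and 17.2%. The lower end of the MACS interval is close to 6.14%, and neighbours in a cluster are not independent. The 15 genes with numbers 4 to 8 had no region in either list (interval 0 to 21.8), which takes in the 20.9% of all protein-coding genes named in either. Of the 8 genes with numbers 1 to 3, 1 had a MACS region and 1 had islands (12.5%, interval 0.316 to 52.7 for each). These intervals take in the share of all protein-coding genes in each list. The division into ranges of numbers was not tested. Paralogue 9 was the number with most members named, 2 of 4 (Hoxa9 and Hoxb9). Hoxc9 and Hoxd9 were not named. Paralogue 10 had 1 of 3, paralogue 13 had 1 of 4, paralogue 3 had 1 of 3 and paralogue 2 had 1 of 2. With 2 to 4 genes per number, 1 region more or less changes each of these shares widely.

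HoxA was the cluster with most members named in either list, 3 of 11 (27.3%, interval 6.02 to 61), against 20.9% of all protein-coding genes. A MACS region was listed at 2 of its genes (18.2%, interval 2.28 to 51.8), against 4.17% of protein-coding genes on its chromosome. Islands were listed at 1 (9.09%, interval 0.23 to 41.3), against 15.3%. Each interval takes in the share beside it. Hoxa2 patterns the hindbrain and the second pharyngeal arch. Its first island ran from 52113000 to 52116199 on chromosome 6 and was 3200 bp wide. This island covered the start of the gene. It took in 1831 bp (78.9%) of the body as listed, which ran from 52112509 to 52114830 on the minus strand, and reached 1369 bp upstream. Of all islands, 15.4% covered the start of their gene.

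The second Hoxa2 island ran from 52119800 to 52121599, was 1800 bp wide and began 4970 bp upstream of the listed gene start. Both were narrower than the median island of 4800 bp, and 27.0% and 8.91% of islands were narrower still. The list pairs every island with a single gene. In GRCm38 the nearer end of Hoxa3 lies 4228 bp upstream of the Hoxa2 start, and that of the noncoding gene Hoxaas2 lies 843 bp upstream. Neither is named by an island. By these distances the second island would lie within Hoxa3, which spans 4228 to 48236 bp upstream of the Hoxa2 start, and beyond Hoxaas2. The first island, which reached 1369 bp upstream, would run into Hoxaas2, which spans 843 to 4620 bp upstream. This sets distances of the deposited list beside those of GRCm38.

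The bases before the Hoxa2 start are shown because the first island covers them by the listed gene position. They are the 250 bases before the start in RefSeq (GRCm38.p6, chr6:52164832-52165081, minus strand), and capitals mark each CpG, the substrate of DNMT3B. These coordinates belong to GRCm38.p6 and cannot be set beside the deposited positions.
Hoxa2: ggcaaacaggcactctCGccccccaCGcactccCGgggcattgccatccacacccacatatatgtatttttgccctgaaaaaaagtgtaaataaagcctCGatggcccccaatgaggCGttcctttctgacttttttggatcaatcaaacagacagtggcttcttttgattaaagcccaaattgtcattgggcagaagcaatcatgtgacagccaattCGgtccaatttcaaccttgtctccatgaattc
The stretch holds 6 CpGs, and 62.2% of the 21263 RefSeq promoters of protein-coding genes hold as many or more in the same window. Its GC content is 46.4%. CG reads the same on both strands.

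Hoxa9 and Hoxa10 are neighbours in the cluster, and both are known for their part in blood cell formation and leukaemia. The Hoxa9 region was listed at 52175300 on chromosome 6, with equal start and end, and was worded as intronic. The Hoxa10 region ran from 52190500 to 52190600 and was worded as contained within the gene. They were 15.2 kb apart. Starts of this length are rounded to 100 bp, so a width of 0 stands for a region narrower than the rounding can show. Among the 989 MACS regions with such starts, 138 (14%) had equal start and end, and the median width was 100 bp. The Hoxa10 gene overlaps the noncoding gene Gm52902 in RefSeq. The MACS list named Hoxa10 alone.

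Both MACS regions of HoxA lay between islands, not in them. The nearest island to either was the second Hoxa2 island, 53.7 kb from the Hoxa9 region and 68.9 kb from the Hoxa10 region. The stretch without islands between it and the next island was 142 kb long. That next island, from 52263400 to 52266399, covered the start of Evx1. Evx1 is a homeobox gene related to the Hox genes and is the first protein-coding gene beyond the high-numbered end of HoxA. The 2 Hox regions were the only MACS regions in this stretch.

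**Figure D2:**
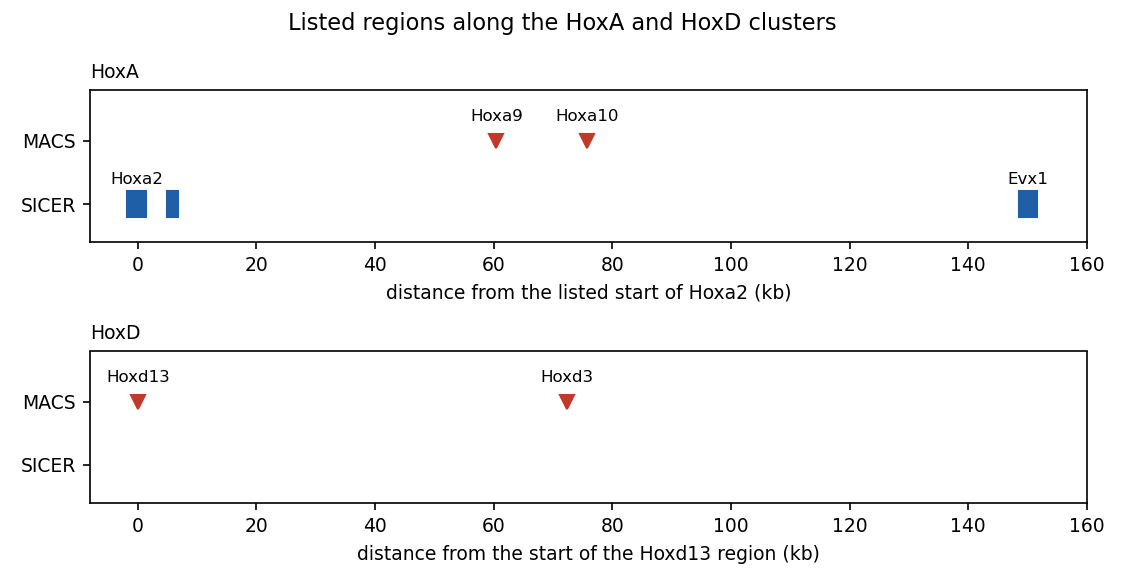
Listed regions along HoxA (upper panel, distance in kb from the listed start of Hoxa2) and HoxD (lower panel, distance in kb from the start of the Hoxd13 region), by deposited positions. Red triangles mark MACS regions and blue bars are SICER islands to scale. The Hoxa9 and Hoxa10 regions lie 60.5 and 75.7 kb from the Hoxa2 start, between islands, and the HoxD panel holds no island.

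HoxD had 2 MACS regions among 9 genes (22.2%, interval 2.81 to 60), against 5.89% of protein-coding genes on chromosome 2. It had no island (interval 0 to 33.6), against 20.2%. Each interval takes in the share of the chromosome. Hoxd13 acts in the digits and the genital and urinary tract. Its region ran from 74506300 to 74506400 on chromosome 2 and was the one MACS region at a Hox gene worded as overlapping it in part. By the deposited wording, 33.7% of the region lay in the gene. This is 34 of its 101 positions, with 67 outside the gene, all known only to the rounding of 100 bp. The wording as read here does not name the gene end that was crossed, and the start was assumed. Of all MACS regions, 11.4% were worded as overlapping a gene in part.

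The bases before the Hoxd13 start are shown because the region reaches into them if it crosses the gene start, which was assumed. They are again 250 bases from RefSeq (GRCm38.p6, chr2:74667975-74668224, plus strand), with each CpG in capitals.
Hoxd13: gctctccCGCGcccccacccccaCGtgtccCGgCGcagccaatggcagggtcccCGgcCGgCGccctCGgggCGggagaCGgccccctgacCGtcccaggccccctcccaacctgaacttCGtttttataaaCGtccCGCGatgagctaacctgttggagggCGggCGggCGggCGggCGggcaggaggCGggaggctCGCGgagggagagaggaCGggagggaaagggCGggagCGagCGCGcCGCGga
It holds 31 CpGs, against 6 before the Hoxa2 start, and its GC content is 74.4%. As many CpGs or more are found in 6.67% of promoters of protein-coding genes. Promoters of other Hox genes with a MACS region held 3 CpGs (Hoxa9), 12 (Hoxd3), and 20 and 7 (Hoxa10). Hoxb9 had no promoter entry. The RefSeq promoter table held 22 of the 39 Hox genes (56.4%). A comparison of CpG content between Hox genes with and without regions is therefore void.

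Hoxd3 takes part in forming the first vertebrae. Its region ran from 74578500 to 74578700, 72.2 kb from the Hoxd13 region, and was worded as intronic. It stood on 3 lines of the deposited list, and the other Hox regions stood on 1 line each. Of all MACS regions, 26.6% stood on 3 lines or more. In RefSeq the long Hoxd3 gene overlaps Hoxd4, the microRNA gene Mir10b and the noncoding genes Hoxd3os1 and Gm38462. The MACS list named none of these.

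HoxD lay in one of the longest stretches without an island on its chromosome. The nearest islands were 3.14 Mb away on one side of the Hoxd13 region, paired with Dlx1as, and 10.39 Mb away on the other side, paired with Tnks1bp1. The stretch of 13.53 Mb was number 2 by length of the 837 stretches between islands on chromosome 2, and it held 6 MACS regions. Among all MACS regions, 3.17% were farther from an island than that of Hoxd13. Each of the 8242 islands lies at most 10 kb from its gene, so distances depend on where genes lie. How far the position of HoxD in the list reflects this was not tested.

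HoxB had 1 MACS region among 10 genes (10%, interval 0.253 to 44.5), close to the 11.2% of protein-coding genes on chromosome 11. It had no island (interval 0 to 30.8), against 31.5%. The region belonged to Hoxb9, which acts in the thoracic skeleton and mammary gland. It ran from 96130900 to 96131100 on chromosome 11, 1544 bp upstream of the gene. Of all MACS regions, 20.6% were worded as upstream of a gene. The nearest island was 435 kb away. The stretch without islands around Hoxb9 was 934 kb long, number 17 of 1194 on the chromosome. It ran from an island paired with Gngt2 to one paired with Snx11 and held 2 MACS regions.

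**Figure D3:**
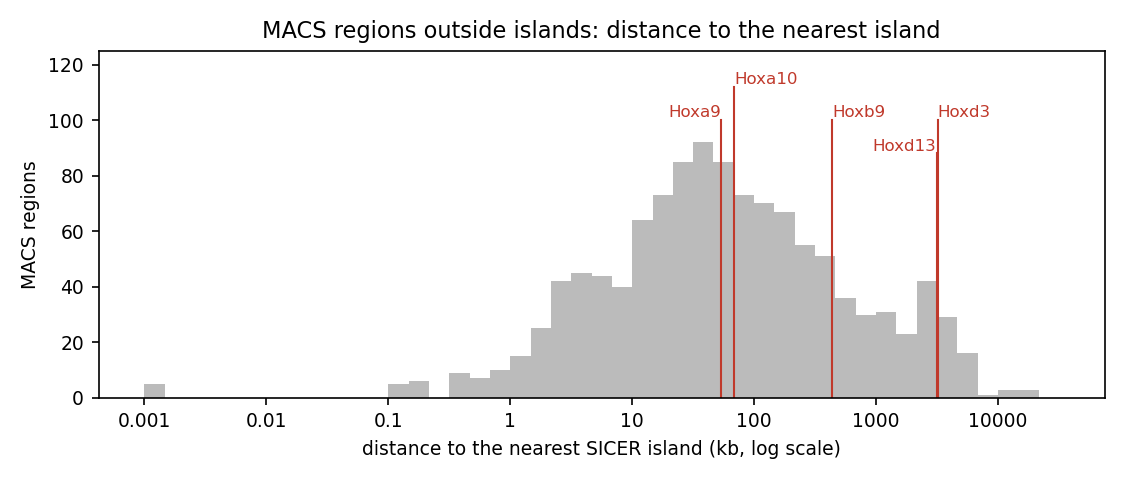
Distance from each of the 1184 MACS regions outside islands to the nearest SICER island (grey bars, kb, log scale), with the 5 regions at Hox genes in red. The Hoxa9 and Hoxa10 regions lie near the middle of the distribution, Hoxb9 to the right of it and the HoxD regions near its right end.

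None of the 5 MACS regions at Hox genes lay in an island, where 521 of all 1705 regions (30.6%) did. The 1184 regions outside islands were at a median of 53.6 kb from one, with quartiles of 12.8 and 244 kb. Hoxa9 and Hoxa10 were close to this median. Hoxb9 lay beyond the upper quartile, and the HoxD regions lay far beyond it.

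HoxC was the one cluster named in neither list. None of its 9 genes had a region, against 5.41% of chromosome 15 genes with a MACS region and 20.7% with an island. The interval, 0 to 33.6 in each list, takes in both shares. The 20 protein-coding genes before it and the 15 between it and the end of the chromosome were also looked up. Of these, 1 had a MACS region (2.86%) and 1 had an island (2.86%). Rarg, a retinoic acid receptor gene, was the 17th gene before the cluster, with a MACS region at 102088000. The integrin gene Itgb7 was the 18th, with an island.

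Around all 4 clusters, 155 flanking protein-coding genes were taken, up to 20 on each side. Of these, 7 (4.52%) had a MACS region and 21 (13.5%) had an island. The island count differed by cluster, with 15 of 40 flanking genes at HoxB, 5 of 40 at HoxA, 1 of 35 at HoxC and 0 of 40 at HoxD. HoxB itself thus had no island where 37.5% of its flanking genes did. The flanking genes were not matched to Hox genes in length, and this contrast was not tested. Snx11, an endosomal sorting gene, was the second gene beyond HoxB. Its island from 96629800 to 96632799 was 1 of 2 among the 18 matched genes listed as cluster neighbours, the other being that of Evx1. None of these 18 had a MACS region. None of 16 noncoding genes of the clusters was named in either list, among them Hotair, Hottip and the microRNA genes Mir10a, Mir10b and Mir196b. Such genes were seldom named at all, with a MACS region at 0.566% and an island at 1.51% of the 13959 lncRNA and miRNA genes in RefSeq.

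Gene length bears on such counts, and Hox genes are short. Their median length in RefSeq was 3737 bp, against 17146 bp for all protein-coding genes. Of the 33 Hox genes of up to 10 kb, 4 (12.1%) had a MACS region and 1 (3.03%) had an island. Among all protein-coding genes of this length, 4.06% had a MACS region and 11.3% had an island. The Hox share thus lay on the same side of all genes in each list. The gap in islands was smaller than over all lengths, and the gap in MACS regions was larger. These gaps were not tested.

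The Hox genes were set beside other families of developmental transcription factors. MACS regions were listed at 5 of 39 Hox genes (12.8%), 5 of 44 Fox genes (11.4%), 2 of 19 Sox genes (10.5%), 1 of 13 Tbx genes (7.69%) and 2 of 17 Klf genes (11.8%). Homeobox genes outside the clusters, among them Dlx1, Gbx2, Irx3 and Lhx3, had a MACS region at 10 of 68 (14.7%). The Hox share lay among these. Islands were listed at 1 Hox gene (2.56%), below the share in each of the other groups, and at 10 Fox (22.7%), 4 Sox (21.1%), 3 Tbx (23.1%), 7 Klf (41.2%) and 12 other homeobox genes (17.6%). The interval of the Hox share, up to 13.5%, overlapped those of the Fox, Sox, Tbx and other homeobox genes but not that of the Klf genes. Median gene length was 3737 bp for Hox genes and longer in each of the other groups. It was 5193 bp for Fox, 4794 bp for Sox, 21017 bp for Tbx, 11412 bp for Klf and 6778 bp for other homeobox genes. The differences in share were not tested.

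**Figure D4:**
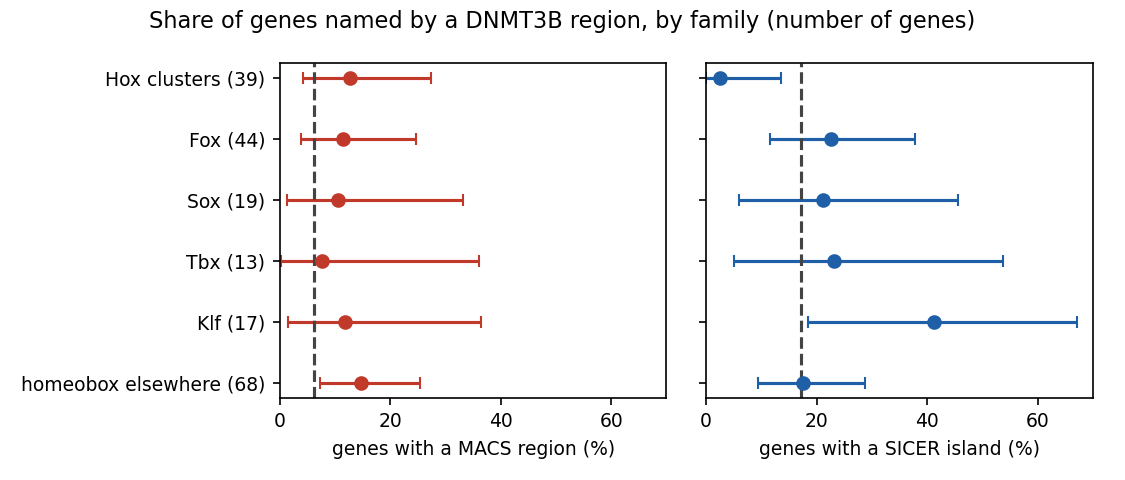
Share of genes with a MACS region (left) and a SICER island (right), in percent, for Hox genes and 5 other groups of transcription factor genes. Points are shares, bars are exact 95% binomial intervals, and dashed lines are the shares of all protein-coding genes, 6.14% and 17.2%. The Hox share lies among the others on the left and lowest on the right.

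Genes that act with or on the Hox genes were looked up in the same way, without a test against the clusters. The TALE homeodomain proteins bind DNA together with Hox proteins. Of their 9 genes, 1 had a MACS region (11.1%) and 4 had an island (44.4%), against 6.14% and 17.2% of all protein-coding genes. Pknox2 had both, a MACS region from 36954300 to 36954400 on chromosome 9 inside an island from 36954000 to 36955999 that covered the gene start. Pbx4 and Pknox1 had 1 island each, of 1600 and 5600 bp. Of 8 ParaHox and Evx genes, 2 had an island, Cdx2 with 2 of 4200 and 600 bp and Evx1 with 1 of 3000 bp, and 0 had a MACS region.

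Regulators of Hox expression had a MACS region at 5 of 14 genes (35.7%) and an island at 7 (50.0%), against 6.14% and 17.2% of all protein-coding genes. Genes in both lists were Men1, Rara, Cyp26b1 and Wnt3a. Men1 encodes menin, which holds the MLL methyltransferase complex at Hox genes. Its MACS region from 6335500 to 6335640 on chromosome 19 lay in an island from 6333800 to 6340999 across the gene start. Rara encodes a retinoic acid receptor and had MACS regions listed as 1210 and 10 bp upstream, both outside its island of 7600 bp. The distance of 10 bp is smaller than the rounding of 100 bp, so that region may reach the gene start. Cyp26b1, which breaks down retinoic acid, had an intronic MACS region at 84535400 on chromosome 6 and an island of 2600 bp elsewhere in the gene. The ligand gene Wnt3a had 2 intronic MACS regions and 3 islands of 3200, 1800 and 2600 bp.

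Polycomb group and partner genes had a MACS region at 7 of 31 (22.6%) and an island at 8 (25.8%), against the same 6.14% and 17.2%. Genes in both lists included Cbx6 and Kdm2b. Cbx6, a chromodomain subunit of Polycomb repressive complex 1, had a MACS region 136 bp upstream, at 79664900 on chromosome 15. It lay in an island from 79662200 to 79665599 across the gene start. Kdm2b, whose product binds unmethylated CpG islands, had an intronic MACS region at 123351000 on chromosome 5 and an island of 3200 bp elsewhere in the gene. The 19 genes without a region included the core methyltransferase subunit genes Ezh2, Eed and Suz12. Of the same list, Ezh1 had a MACS region listed as 222 bp upstream and Aebp2 had an intronic MACS region. Starts as long as that of the Ezh1 region are rounded to 1000 bp, so that region may reach the gene start.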

How the data were processed

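The values used are base positions and distances, deposited by the authors in 2 region lists that name no sample. Bowtie2 (version given as 2.10), MACS (version given as 1.4) and SICER were used, per the submitters' processing notes. The name of the MACS list may point to another MACS version. The sources used here do not say whether libraries were pooled. Of 4304 MACS lines, distinct regions were counted once, and an end given as a question mark (2 lines) was set to the start. MACS positions carry 6 significant digits. Overlap percentages equalled whole bases of these rounded regions in 247 of 247 cases (tolerance 1e-06 bases).

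A gene counted as named when a MACS region gave it as nearest or overlapping feature, at any distance, or an island was paired with it. Names were matched to RefSeq (GRCm38) for 1703 MACS regions and 8238 islands. RefSeq served for names, lengths, gene order and distances between genes. MACS regions and islands shared at least 1 bp. Intervals are exact binomial and cover counting error only. The reading of the list was tested on simulated data. Members and lists were chosen with earlier results of these data known. All 39 members are accounted for. Of other lists, genes in both region lists are named, and otherwise the first by number of regions, except that some genes are not reported here. Further genes (Polycomb genes without a region or with a MACS region alone, families' examples, cluster neighbours) were named after their values were seen. Python 3.11.15, pandas 2.3.3 and scipy 1.17.1 were used.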

Additional observations from a re-analysis of the deposited data

How the results depend on the processing

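The 5 Hox genes with a MACS region remained 5 with regions limited to overlap or 5 kb upstream, within 20 kb, and by the nearest feature column alone. The count was 4 with overlap alone, which leaves out Hoxb9 (5.04% of all protein-coding genes have an overlapping region). Counting every deposited line gave 7 in place of 5 regions. With islands of at least the median width, 0 Hox genes had an island in place of 1, since both Hoxa2 islands are narrower. With overlap of the gene body required, 1 Hox island was left in place of 2. No Hox MACS region lay in or within 1 kb of an island. Among protein-coding genes of the 4 chromosomes with clusters, 7.07% had a MACS region and 22.7% an island. Among those within the range of Hox gene lengths, 6.32% and 18.4% did. Both backgrounds by gene length (up to 10 kb and within the Hox range) were added after the data were seen. No paired analysis was possible because positions carry no measurement of any single library, which also means that none could be left out. Depth is unknown and the SICER list is named as a selection, so a gene without a region is one not listed, not one shown to lack DNMT3B.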
